A study of Mus musculus with 24 samples.

Results

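The genes described here are 49 that carry glucose carbon through the cell, taken by symbol from the 35275 genes of the deposited expression table, and all 49 were found. They fall into glucose entry (3 genes), upper glycolysis down to the triose phosphates (9), lower glycolysis and lactate (7), pyruvate entry into the mitochondrion and its control (12), the citrate cycle with the cytosolic enzymes Idh1 and Mdh1 (14) and the pentose phosphate branch (4). Their RNA levels were measured in 2 white fat depots, gonadal and inguinal, of conditional adipose FoxO1 knockout mice (KO) and of control mice with the floxed FoxO1 gene, in a study of the genes and pathways under FoxO1. The 4 groups, gonadal KO, gonadal control, inguinal KO and inguinal control, each held 3 mice with 2 libraries per pad, and the 2 libraries were averaged so that the mouse was the replicate. Nothing in the labels names the Cre driver, the deleted exons, the sex or the age, and genotype, depot and mouse were read from the library names. Reads assigned to genes ranged between 14953657 and 25438811 per library.

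Glycolysis splits glucose into pyruvate in the cytosol, where lactate dehydrogenase can reduce pyruvate to lactate, and the pentose phosphate branch draws off glucose 6-phosphate to make NADPH and ribose. Pyruvate enters the mitochondrion through the carrier of Mpc1 and Mpc2 and becomes acetyl-CoA by the pyruvate dehydrogenase complex or oxaloacetate by pyruvate carboxylase, and the citrate cycle condenses these products. In white adipocytes citrate is also sent back to the cytosol for fatty acid synthesis, and FoxO1, the transcription factor removed here, is excluded from the nucleus when insulin acts.

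Libraries held 14953657 to 25438811 reads assigned to genes. The members were counted deeply, with a lowest count in any library of 52 reads for every member except Aldoc, which went down to 3 reads. The SD between the 2 libraries of a pad was 0.04 on the log2 scale (median over members), and the SD between mice was 0.17 in gonadal KO, 0.14 in gonadal control, 0.07 in inguinal KO and 0.31 in inguinal control fat. Foxo1 itself stood at 4.07, 4.46 and 4.01 FPKM (fragments per kilobase of gene, scaled to the assigned reads of the library) in gonadal KO pads against 13.6, 7.87 and 9.53 FPKM in gonadal control pads, and at 4.12, 2.49 and 5.69 FPKM in inguinal KO pads against 19.7, 13.0 and 14.5 FPKM in inguinal control pads. All KO pads were below all control pads of their depot, with p = 0.1 in both depots by exact permutation (two-sided), which is as small as it can be with 3 mice in a group. Since whole pads were sequenced, fewer cells of a type and less RNA per cell cannot be told apart in any comparison.

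Expressed per gene length, the most abundant member of each step, averaged over the 12 pads, was Hk2 among the genes of glucose entry (23.8 FPKM), Aldoa in upper glycolysis (1277 FPKM), Ldha in lower glycolysis (735 FPKM), Pcx in pyruvate entry (322 FPKM), Mdh2 in the citrate cycle (247 FPKM) and Tkt in the pentose phosphate branch (596 FPKM). Aldoc was the scarcest member at 2.0 FPKM.

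Promoter windows from RefSeq (build GRCm38.p6, 250 bases before to 50 after each start) were found for 47 of the 49 genes, 73 windows in all. They were searched on both strands for GTAAACA, the core bound by forkhead factors of the FoxO family, and for CACGTG, an E-box that reads the same on both strands, and no window of a member held both. GTAAACA was in 1 of the 73 windows (1.37%), that of Aldoc, against 3.65% of 32851 windows of all genes. CACGTG was in 9 windows (12.3%) of 7 genes, Ldha, Ogdh, Pcx, Pdk2, Pdp2, Pfkfb3 and Pfkm, against 7.15% of all windows. The windows that hold a motif are shown for Pcx and Pfkfb3, which were among the members with the smallest p values in gonadal fat, and for Aldoc; Pkm and Pdhx, the members with the smallest p in inguinal and in gonadal fat, are shown as windows with neither. Motif letters are in capitals, and a match describes letters, not a bound site. Pcx is at chr19:4510222-4510521 (plus strand), Pfkfb3 at chr2:11502041-11502340 (minus strand), Aldoc at chr11:78323948-78324247 (plus strand), Pkm at chr9:59656326-59656625 (plus strand) and Pdhx at chr2:103073464-103073763 (minus strand), each written 5′ to 3′ on its own strand.
Pcx: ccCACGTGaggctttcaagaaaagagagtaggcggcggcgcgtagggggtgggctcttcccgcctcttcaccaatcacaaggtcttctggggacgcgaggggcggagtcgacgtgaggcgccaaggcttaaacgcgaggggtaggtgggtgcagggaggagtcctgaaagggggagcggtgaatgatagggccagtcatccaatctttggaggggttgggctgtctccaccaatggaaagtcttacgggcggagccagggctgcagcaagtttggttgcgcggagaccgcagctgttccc
Pfkfb3: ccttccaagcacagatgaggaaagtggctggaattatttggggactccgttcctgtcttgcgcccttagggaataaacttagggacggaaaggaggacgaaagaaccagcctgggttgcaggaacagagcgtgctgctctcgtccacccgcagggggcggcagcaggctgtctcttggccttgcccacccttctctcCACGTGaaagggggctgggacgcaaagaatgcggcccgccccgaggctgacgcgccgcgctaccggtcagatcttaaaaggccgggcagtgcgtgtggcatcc
Aldoc: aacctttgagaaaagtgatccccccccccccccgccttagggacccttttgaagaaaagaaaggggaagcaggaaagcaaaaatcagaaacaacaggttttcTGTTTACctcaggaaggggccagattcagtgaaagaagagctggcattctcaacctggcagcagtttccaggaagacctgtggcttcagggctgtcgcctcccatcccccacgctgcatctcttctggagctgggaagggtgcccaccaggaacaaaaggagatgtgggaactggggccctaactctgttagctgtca
Pkm: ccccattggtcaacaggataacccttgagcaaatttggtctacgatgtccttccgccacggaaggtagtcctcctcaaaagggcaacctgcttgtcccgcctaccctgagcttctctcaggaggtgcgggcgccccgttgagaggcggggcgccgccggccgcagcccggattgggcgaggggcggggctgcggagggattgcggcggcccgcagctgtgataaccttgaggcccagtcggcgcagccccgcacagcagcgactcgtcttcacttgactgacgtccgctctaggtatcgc
Pdhx: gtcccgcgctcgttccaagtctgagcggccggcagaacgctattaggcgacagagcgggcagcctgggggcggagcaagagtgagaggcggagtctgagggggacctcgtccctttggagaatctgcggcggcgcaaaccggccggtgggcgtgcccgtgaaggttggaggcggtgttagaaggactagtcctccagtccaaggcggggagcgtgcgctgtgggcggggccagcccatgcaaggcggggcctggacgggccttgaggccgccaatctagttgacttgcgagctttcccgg

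In gonadal fat the genes that take pyruvate into the mitochondrion and turn the citrate cycle stood higher in KO than in control pads, though short of the adjusted threshold, whereas the enzymes of lower glycolysis were on both sides. With limma on log2(FPKM + 0.5), 33 of the 49 members stood higher in KO and 16 lower, with a median log2 fold change of 0.20 against -0.02 over the 14851 genes tested, of which 44.2% stood higher. No member passed a Benjamini-Hochberg adjusted p of 0.05, and no gene of the 14851 did (0%). At an unadjusted p under 0.05 there were 20 members higher and 1 lower in KO, 40.8% and 2.04% of the set, against 4.4% and 4.3% of all genes. In 20 members all KO pads were above all control pads and in 1 all were below, against 6.79% and 7.54% of all genes.

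**Figure D1:**
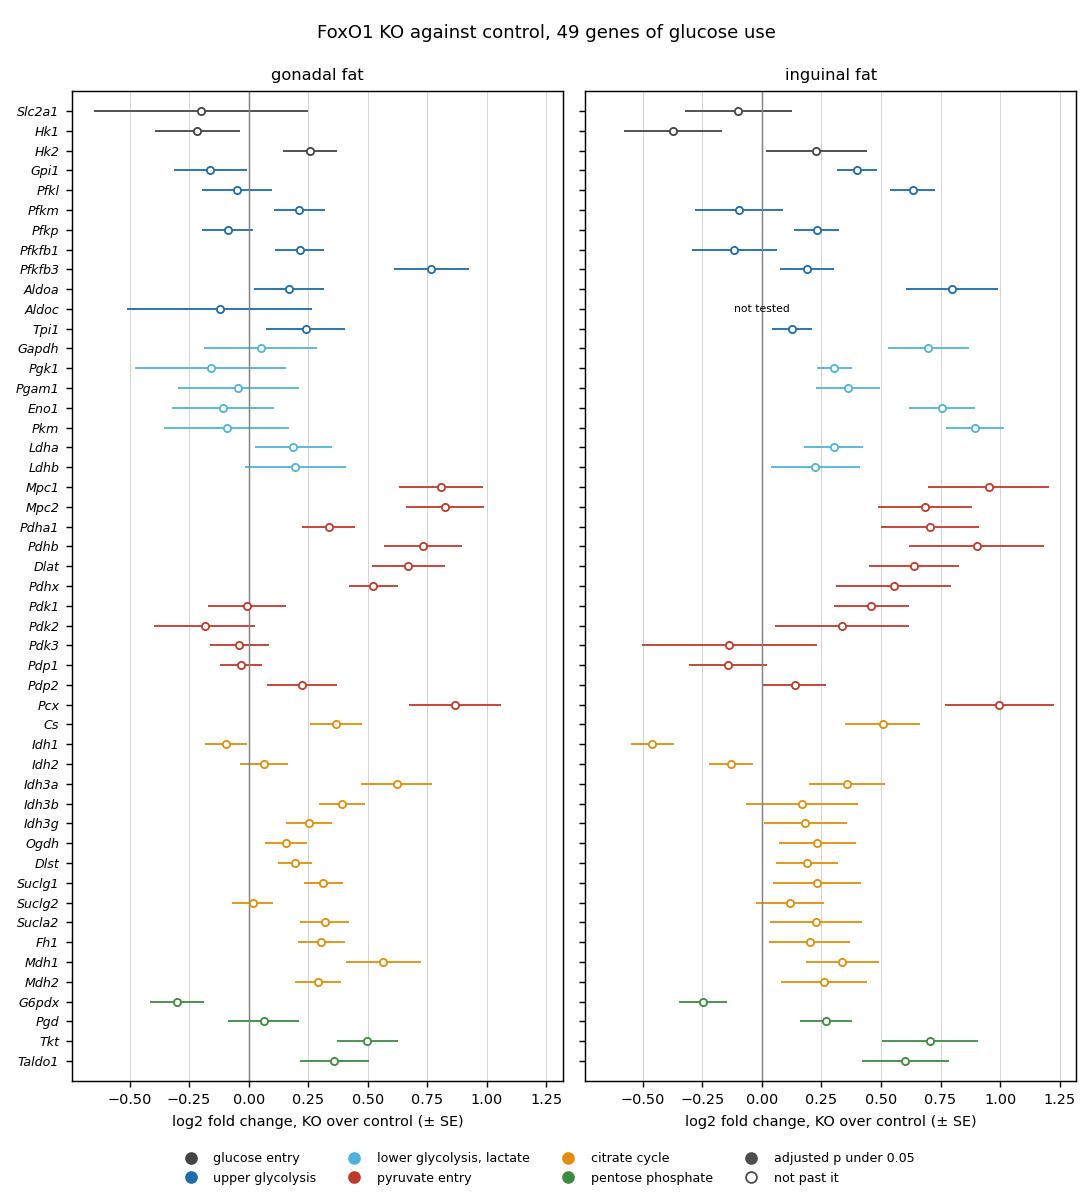
Log2 fold change of FPKM, KO over control, with its standard error, for the 49 members in gonadal fat (left) and inguinal fat (right), coloured by step. Open circles mark members that did not pass an adjusted p of 0.05, which is all of them. In gonadal fat 8 of 12 pyruvate entry genes and 13 of 14 citrate cycle genes lie to the right of 0, and 3 of 7 lower glycolysis genes do; in inguinal fat all 7 genes of lower glycolysis lie to the right as well.

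Pyruvate entry held the members with the largest gonadal differences. Of its 12 genes 8 stood higher in KO, 7 of them with an unadjusted p under 0.05 and with KO and control pads apart, and the median log2 fold change was 0.43. Those 7 were both carrier subunits, the catalytic and structural subunits of pyruvate dehydrogenase and pyruvate carboxylase. The kinases of the set that switch the complex off did not share the pattern, with log2 fold changes of -0.01 for Pdk1, -0.19 for Pdk2 and -0.04 for Pdk3, nor did its phosphatases, at -0.03 for Pdp1 and 0.22 for Pdp2. Pdk4, a further kinase outside the set, stood at 7.26, 5.60 and 5.58 FPKM in gonadal KO pads. Its gonadal control pads were at 12.7, 5.83 and 10.2 FPKM, so the groups overlapped. In the authors' deposited table Pdk4 is listed as lower in gonadal KO fat, at -0.52.

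Mpc2, a subunit of the mitochondrial pyruvate carrier (chr1:165461037-165481214, mm10), stood at 47.1, 71.0 and 67.6 FPKM in gonadal KO pads against 35.5, 34.1 and 32.9 FPKM in gonadal control pads. The control pads lay close together and every KO pad was above them (log2 fold change 0.83, SE 0.16, limma adjusted p = 0.421). Its partner Mpc1 (chr17:8282904-8297661) stood at 6.61, 8.05 and 9.63 FPKM in gonadal KO pads against 3.93, 3.95 and 5.34 FPKM in gonadal control pads. These groups did not overlap either, and the log2 fold change was 0.81 (SE 0.17, limma adjusted p = 0.421). The Mpc1 values are uncertain, because the deposited table also lists a pseudogene copy, Mpc1-ps on chromosome 12, at 39.2, 54.9 and 54.9 FPKM in gonadal KO pads against 26.3, 29.5 and 22.5 FPKM in gonadal control pads. The labels do not say how reads shared by the gene and its copy were assigned.

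Pdhb, which encodes the beta subunit of the decarboxylating E1 enzyme of pyruvate dehydrogenase (chr14:8165991-8172992), stood at 96.6, 147 and 131 FPKM in gonadal KO pads against 73.9, 76.8 and 71.0 FPKM in gonadal control pads. Dlat, the acetyltransferase core of the complex (chr9:50634633-50659780), stood at 25.8, 36.3 and 37.7 FPKM in gonadal KO pads against 20.8, 21.0 and 19.5 FPKM in gonadal control pads. Pdhx, which tethers the dehydrogenase E3 to that core (chr2:103021075-103073513), stood at 14.2, 16.4 and 16.8 FPKM in gonadal KO pads against 10.1, 11.9 and 10.4 FPKM in gonadal control pads. In each of these 3 genes the KO and control pads were apart, and the KO pads of M9 and M12 were above that of M5. The log2 fold changes were 0.73 for Pdhb (SE 0.16), 0.67 for Dlat (SE 0.15) and 0.52 for Pdhx (SE 0.10), each with a limma adjusted p of 0.421. Pcx, pyruvate carboxylase, which makes oxaloacetate (chr19:4510472-4621752), stood at 149.7, 219 and 239 FPKM in gonadal KO pads against 120.3, 107 and 99.8 FPKM in gonadal control pads. It had the largest gonadal fold change of the 49 members, 0.87 on the log2 scale (SE 0.19, limma adjusted p = 0.421), again with no overlap between the groups.

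**Figure D2:**
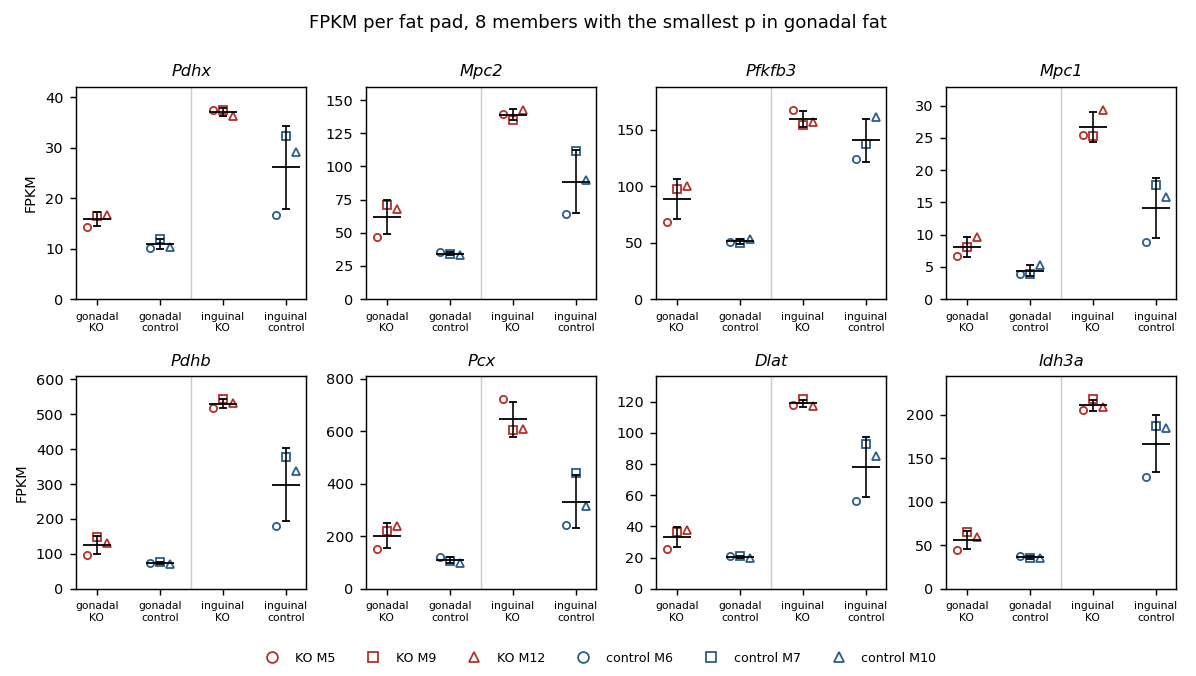
FPKM in each fat pad for the 8 members with the smallest p in the gonadal comparison, KO pads in red and control pads in blue, with the mean and SD of each group as black marks (n = 3 mice). In gonadal fat all KO pads lie above all control pads in each panel, and in both genotypes the inguinal levels lie above the gonadal ones.

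In the gonadal citrate cycle 13 of 14 genes stood higher in KO, 10 of them with an unadjusted p under 0.05 and 9 with the groups apart, and the median log2 fold change was 0.30. Idh3a, the catalytic subunit of the NAD-dependent isocitrate dehydrogenase of the cycle (chr9:54586511-54604661), stood at 44.4, 65.2 and 59.1 FPKM in gonadal KO pads against 37.7, 35.2 and 34.9 FPKM in gonadal control pads. The groups did not overlap (log2 fold change 0.62, SE 0.15, limma adjusted p = 0.428). Among the 3 subunits of that enzyme, summed in FPKM, Idh3a made up 28.4% ± 2.06 in gonadal KO and 24.4% ± 0.09 in gonadal control fat (SD, n = 3 each). The one member of the step that stood lower was Idh1, the cytosolic NADP-dependent isocitrate dehydrogenase, at -0.09.

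Glycolysis in gonadal fat gave no such shift. Of the genes of glucose entry, Slc2a1 stood at a log2 fold change of -0.20 (SE 0.45), Hk1 at -0.22 (SE 0.18) and Hk2 at 0.26 (SE 0.11), and none had an unadjusted p under 0.05. In upper glycolysis 5 of 9 genes stood higher, and the only one with an unadjusted p under 0.05 was Pfkfb3 (chr2:11471430-11502101), which makes the allosteric activator of phosphofructokinase. It stood at 68.6, 97.5 and 101 FPKM in gonadal KO pads against 50.9, 49.6 and 53.6 FPKM in gonadal control pads, groups that did not overlap (log2 fold change 0.77, SE 0.16, limma adjusted p = 0.421). In lower glycolysis 3 of 7 genes stood higher and none had an unadjusted p under 0.05, with a median of -0.04. That median was -0.21 without KO mouse M5, -0.26 without control mouse M6 and 0.12, with 7 of 7 genes higher, without control mouse M7. The gonadal pads instead varied within each genotype. Pkm, the muscle-type pyruvate kinase, stood at 632, 422 and 412 FPKM in gonadal KO pads against 397, 683 and 491 FPKM in gonadal control pads. The KO pad of M5 and the control pad of M7 were the high ones, and M7 was the highest of the 6 gonadal pads in 5 of the 7 lower glycolysis genes.

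The pentose phosphate genes divided. G6pdx, the entry enzyme that makes NADPH, was the single member with an unadjusted p under 0.05 and a lower level in gonadal KO pads, at 51.4, 54.4 and 56.0 FPKM against 77.1, 59.1 and 64.5 FPKM in gonadal control pads. Its log2 fold change was -0.30 (SE 0.11, limma adjusted p = 0.549). Tkt, transketolase of the branch that returns pentoses to glycolysis, stood higher, at 225, 269.6 and 286 FPKM in gonadal KO pads against 201, 185 and 165 FPKM in gonadal control pads, with a log2 fold change of 0.50 (SE 0.13, limma adjusted p = 0.454). Both genes had KO and control pads apart, in opposite directions.

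Which members pass a threshold depended on what was counted as a replicate and on the tool. With the 6 libraries of a group as replicates, limma called 21 gonadal members, 20 higher and 1 lower, against 3.83% and 3.74% of all genes. DESeq2 on read counts rebuilt per mouse and pad called 12, all higher, against 1.37% of all genes, whereas edgeR called 0, with 20 at an unadjusted p under 0.05 against 8.69% of all genes. With the mouse as the replicate in limma, leaving out KO M9, KO M12 or control M10 left 13, 14 and 12 members at an unadjusted p under 0.05, in that order, in place of 21. The share of all genes at that p is not given for these fits or for the covariate fits below. The authors' deposited table lists 24 members as higher and 1 as lower in gonadal KO fat, 49% and 2.04% of the set, against 6.29% and 5.27% of the genes tested here. The authors' tables hold the 6 libraries of a group as separate columns of read counts, and their cutoff for listing a gene is not given here.

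Markers of other cell types moved with some of these values. The 5 adipocyte markers (Adipoq, Plin1, Lipe, Cidec, Fabp4) summed to 8725, 12958 and 9694 FPKM in gonadal KO pads against 6965, 6489.7 and 6697 FPKM in gonadal control pads, and 4 of the 5 had an unadjusted p under 0.05. With the adipocyte marker level as a covariate the median of the members was 0.22, with 42 of 49 higher, and 1 of the 21 members kept an unadjusted p under 0.05. The steps moved apart in that fit, with medians of 0.26 for pyruvate entry, 0.09 for the citrate cycle (11 of 14 higher) and 0.58 for lower glycolysis (7 of 7 higher). This and the macrophage and brown fat adjustments were chosen after the data were seen. The 7 macrophage markers summed to 2112, 1516 and 1291 FPKM in gonadal KO pads against 2170, 2209.6 and 1903 FPKM in gonadal control pads. The pads of KO M5 and control M7, high in glycolytic genes, had the highest sums of their genotype. Control M6 was close to M7 in these markers, yet was the lowest of the 6 gonadal pads in 6 of the 7 lower glycolysis genes. With the macrophage level as a covariate the median was 0.20, with 42 of 49 higher, the 7 lower glycolysis genes all stood higher with a median of 0.35, and 10 of the 21 members kept an unadjusted p under 0.05. The medians of pyruvate entry and the citrate cycle were 0.26 and 0.19 there. Epididymal genes were abundant in the pads of KO M12 (5955 FPKM summed) and of control M6 and M10 (449 and 3404 FPKM) and at most 1.51 FPKM in the other gonadal pads, and with their level as a covariate the median was 0.20. Red cell genes stood lower in KO in 7 of 7, with sums of 1612, 4181 and 3212 FPKM in gonadal KO pads against 13586, 4224 and 6007 FPKM in gonadal control pads.

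The brown fat markers, genes of thermogenic adipocytes that are rich in mitochondria, also lay apart in gonadal fat. The 6 of them (Ucp1, Cidea, Elovl3, Cox7a1, Cox8b, Ppargc1a) summed to 43.9, 93.8 and 70.9 FPKM in gonadal KO pads against 19.7, 36.1 and 27.6 FPKM in gonadal control pads, with the pads of KO M9 and M12 the highest, as for Pdhb and Dlat. The defining gene Ucp1 was near 0, at 0.0439, 0.0288 and 0.0313 FPKM in gonadal KO pads against 0.096, 0.0417 and 0 FPKM in gonadal control pads, and the sums were mostly Cox8b and Cox7a1. With the brown fat level as a covariate, the median of the members was 0.09 against 0.04 over all genes, no member kept an unadjusted p under 0.05, pyruvate entry was higher in 12 of 12 genes with a median of 0.19, and the citrate cycle in 13 of 14 with a median of 0.08. The part of these cells in the differences was not tested, and the marker levels whose groups do not overlap cannot be told apart from genotype.

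In inguinal fat the glycolytic enzymes themselves stood higher in KO than in control pads, together with pyruvate entry. Of the 48 members tested (Aldoc was under the filter of a mean of 0.5 FPKM), 39 stood higher and 9 lower, with a median log2 fold change of 0.27 against -0.10 over 13621 genes, of which 29.4% stood higher. TMM scaling moved the median of all genes to 0.00 and that of the members to 0.38, with 41 higher. No member passed the adjusted threshold with limma, which 3 of the 13621 genes did (0.022%). At an unadjusted p under 0.05 there were 21 members higher and 2 lower, 43.8% and 4.17% of those tested, against 3.29% and 11.6% of all genes. KO and control pads were apart in 24 members with KO higher and 2 with KO lower, against 5.28% and 17.3% of all genes.

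Lower glycolysis stood higher in all 7 genes, 6 with an unadjusted p under 0.05 and the same number with the groups apart, and the median log2 fold change was 0.36. Pkm (chr9:59656368-59679375) had the smallest p of the members, at 532, 559 and 563 FPKM in inguinal KO pads against 261, 339 and 294 FPKM in inguinal control pads. The groups were far apart relative to their spread (log2 fold change 0.89, SE 0.12, limma adjusted p = 0.111). Eno1, enolase (chr4:150236721-150248879), stood at 659, 658 and 667 FPKM in inguinal KO pads against 329, 455 and 401 FPKM in inguinal control pads. Its KO pads were nearly equal and its control pads were spread and all lower (0.76, SE 0.14, limma adjusted p = 0.144). Pgk1, the first ATP-making step of glycolysis (chrX:106187100-106203699), stood at 139, 140.2 and 140.2 FPKM in inguinal KO pads against 107, 120.2 and 113 FPKM in inguinal control pads, a smaller difference without overlap (0.30, SE 0.07, limma adjusted p = 0.173). Eno1b, a retrotransposed copy of the enolase gene, was at 0.731 FPKM in inguinal KO and 0.534 FPKM in inguinal control fat (means of 3 mice).

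Glucose entry gave no member with an unadjusted p under 0.05, with log2 fold changes of -0.10 for Slc2a1 (SE 0.22), -0.37 for Hk1 (SE 0.21) and 0.23 for Hk2 (SE 0.21). In upper glycolysis 6 of 8 tested genes stood higher, 4 with an unadjusted p under 0.05 and 5 with the groups apart. Pfkl, the liver-type phosphofructokinase at the committed step (chr10:77986947-78010083), stood at 79.1, 81.6 and 77.0 FPKM in inguinal KO pads against 45.2, 55.5 and 52.6 FPKM in inguinal control pads. No pads overlapped (0.63, SE 0.09, limma adjusted p = 0.129). Aldoa, aldolase (chr7:126795234-126800751), stood at 2078, 2161 and 2169 FPKM in inguinal KO pads against 1009, 1494 and 1227 FPKM in inguinal control pads, and Gpi1, glucose phosphate isomerase (chr7:34202122-34230289), at 116, 113 and 123 FPKM in inguinal KO pads against 81.3, 94.8 and 90.6 FPKM in inguinal control pads. Both were without overlap, with log2 fold changes of 0.80 (SE 0.19, limma adjusted p = 0.173) and 0.40 (SE 0.08, limma adjusted p = 0.16). The muscle-type Pfkm did not follow Pfkl, at -0.09 (SE 0.18), so Pfkl made up 65.4% ± 1.25 of the FPKM of the 3 phosphofructokinase genes in inguinal KO fat and 56.0% ± 3.21 in inguinal control fat (SD, n = 3 each), ranges that did not overlap.

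**Figure D3:**
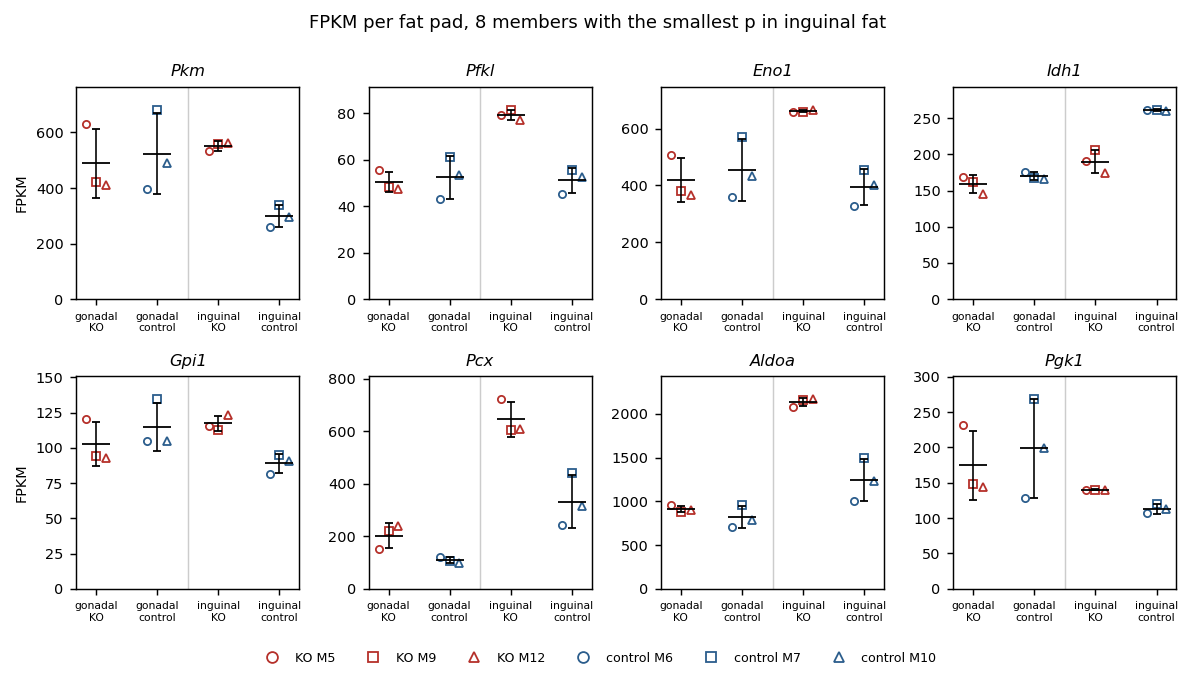
FPKM in each fat pad for the 8 members with the smallest p in the inguinal comparison, drawn as KO pads in red and control pads in blue with group means and SD (n = 3 mice). Inguinal KO pads lie above inguinal control pads in 7 panels and below them for Idh1, while gonadal KO and control pads intermingle except for Pcx.

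Pyruvate entry stood higher in 10 of 12 genes in inguinal KO fat, 7 with an unadjusted p under 0.05 and 8 with the groups apart, with a median of 0.60. Pcx stood at 722, 606 and 607 FPKM in inguinal KO pads against 242, 440.1 and 314 FPKM in inguinal control pads. All KO pads were higher, and its log2 fold change, 0.997 (SE 0.23, limma adjusted p = 0.165), was the largest of the members in this depot. Mpc1 stood at 0.95 (SE 0.25), Pdhb at 0.90 (SE 0.28) and Mpc2 at 0.68 (SE 0.20), with limma adjusted p values of 0.201, 0.241 and 0.219.

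The citrate cycle was less uniform. In inguinal KO fat 12 of 14 genes stood higher, yet 1, Cs, had an unadjusted p under 0.05, and the median of 0.21 depended on a control pad. The control pad of M6 was the lowest of the 6 inguinal pads in 12 of the 14 genes and in 35 of all 49 members, and without that mouse the cycle's median was 0.02 with 9 of 14 higher. Lower glycolysis without M6 still had 7 of 7 genes higher with a median of 0.28, and pyruvate entry 11 of 12 with a median of 0.37. Idh1 (chr1:65158616-65186500) went the other way, at 191, 206 and 174 FPKM in inguinal KO pads against 262, 261 and 260.0 FPKM in inguinal control pads. The 3 control pads were nearly equal and all above the KO pads (-0.46, SE 0.09, limma adjusted p = 0.147). Its share of the FPKM of Idh1 and the mitochondrial Idh2 was 69.0% ± 1.46 in inguinal KO and 73.7% ± 0.58 in inguinal control fat, and 71.4% ± 0.93 in gonadal KO and 73.6% ± 0.45 in gonadal control fat (SD, n = 3 each), without overlap in either depot.

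All 4 pentose phosphate genes had an unadjusted p under 0.05 in inguinal fat. Tkt stood at 1188, 1186 and 1203 FPKM in inguinal KO pads against 555, 904 and 779 FPKM in inguinal control pads (0.70, SE 0.20, limma adjusted p = 0.217), and Taldo1, transaldolase, and Pgd, the second NADPH-making enzyme, were also higher in every KO pad. G6pdx was lower once more, at 84.7, 85.9 and 86.7 FPKM in inguinal KO pads against 117, 94.8 and 95.1 FPKM in inguinal control pads (-0.25, SE 0.10, limma adjusted p = 0.335).

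With 6 libraries per group as replicates, limma called 26 inguinal members, 24 higher and 2 lower, against 3.57% and 12.5% of all genes. DESeq2 called 11, all higher, against 1.72% of all genes, and edgeR called 0, with 21 at an unadjusted p under 0.05 against 13% of all genes. The authors' deposited table lists 26 members as higher and 1, Idh1, as lower, 54.2% and 2.08% of those tested here, against 7.03% and 8.12% of all genes tested. The SD between mice was smaller in KO than in control mice for 44 of 49 members in this depot, against 23 of 49 in gonadal fat. The inguinal control spread includes the pad of M6, the lowest of the 6 inguinal pads in 35 of the 49 members. The share of all genes with a smaller SD in KO is not given here.

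Macrophage markers lay apart between the genotypes in inguinal fat. The 7 macrophage markers summed to 202, 139.7 and 194 FPKM in inguinal KO pads against 530.1, 266 and 377 FPKM in inguinal control pads, and 6 of the 7 had no overlap. With their level as a covariate, the median of the members was -0.04 against 0.12 over all genes, with 20 higher and 28 lower and all 14 citrate cycle genes lower. Pyruvate entry was higher in 4 of 12 genes with a median of -0.02 in that fit, and lower glycolysis in 5 of 7 with a median of 0.14. In it 8 members had an unadjusted p under 0.05, 3 of them among the 23 found without the covariate, and since the marker level does not overlap between the genotypes, marker and genotype cannot be told apart. Red cell genes were also lower in KO, 7 of 7 without overlap, with sums of 2298, 2359 and 2559 FPKM in inguinal KO pads against 10525, 3059 and 10043 FPKM in inguinal control pads. Of the 5 adipocyte markers Lipe was higher and Adipoq lower in every KO pad, and the others overlapped, as did the sums over all 5, at 22385, 21452 and 18533 FPKM in inguinal KO pads against 14439.7, 25422 and 21945 FPKM in inguinal control pads, lowest in the pad of M6, and with them as a covariate the median was 0.27. Skeletal muscle genes summed to 8.55 to 375 FPKM in inguinal KO and 105 to 811 FPKM in inguinal control pads, with 1 of 12, Tnnc2, listed at 0 in all pads, and as a covariate left the median at 0.31, with 12 members at an unadjusted p under 0.05. Brown fat markers summed to 1008, 1369.7 and 1145 FPKM in inguinal KO pads against 308.5, 1169 and 1099 FPKM in inguinal control pads, so that the pad of M6, lowest in most citrate cycle genes, was also the lowest in these. With their level as a covariate the median was 0.16, with 15 members at an unadjusted p under 0.05, 4 of 14 citrate cycle genes higher and 6 of 7 lower glycolysis genes higher. The part of these cells in the inguinal differences was not tested.

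**Figure D4:**
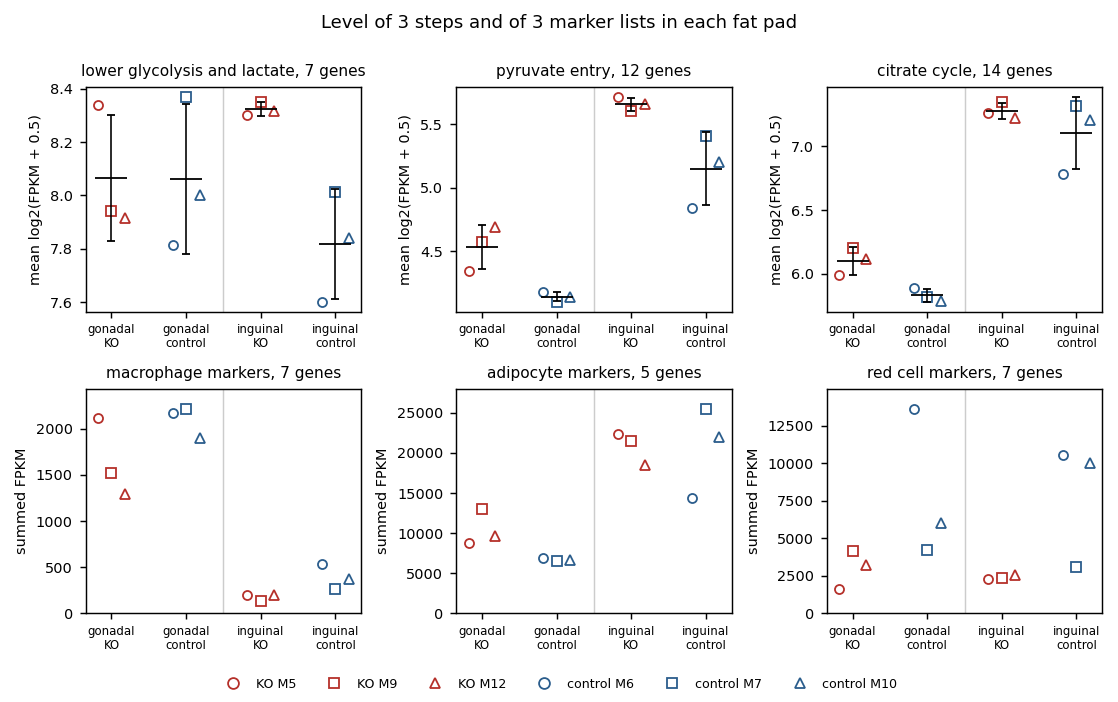
Top, mean log2(FPKM + 0.5) over the genes of 3 steps in each fat pad, with the group mean and SD (n = 3 mice); bottom, the summed FPKM of 3 marker lists in the same pads, KO in red and control in blue. Inguinal KO pads are tightly grouped at a lower glycolysis level of 8.30 to 8.35, above the inguinal control pads at 7.60 to 8.01, and their macrophage sums of 139.7 to 202 FPKM lie below the 266 to 530.1 FPKM of the inguinal control pads.

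The difference between the depots in the KO effect was tested directly, as the gonadal minus the inguinal log2 fold change over all 12 pads. No member passed an adjusted p of 0.05 with limma, nor did any of 14577 genes (0%). At an unadjusted p under 0.05 there were 2 members with a positive difference, Pfkfb3 and Idh1, and 5 with a negative one, Gpi1, Pfkl, Aldoa, Eno1 and Pkm, which is 4.08% and 10.2% of the set against 4.21% and 0.761% of all genes. edgeR and DESeq2 also called 0 members, each with 7 at an unadjusted p under 0.05, against 4.13% of all genes for edgeR and 4.76% for DESeq2. limma with 6 libraries per group called the 7 named above, against 1.55% of all genes on the positive and 0.268% on the negative side. The differences were -0.99 for Pkm (SE 0.30, limma adjusted p = 0.930), -0.86 for Eno1 (SE 0.27, limma adjusted p = 0.930) and -0.68 for Pfkl (SE 0.18, limma adjusted p = 0.869), the 3 members named by smallest p. By step, all 7 lower glycolysis genes had a negative difference, with a median of -0.46, while pyruvate entry had a median of -0.08 and the citrate cycle of 0.09, which was -0.01 with TMM scaling. Those medians depended on single mice, at 0.12 for pyruvate entry and 0.30 for the citrate cycle without control M6 and at -0.25 and -0.04 without control M7, and pyruvate entry was at 0.06 without KO M5. The lower glycolysis median was -0.69 without M6 and without M5, with 6 and 7 of 7 genes negative, and -0.30 without M7. The median over all members was -0.05, with 22 positive and 27 negative, against 0.08 over all genes, of which 66.4% were positive. With TMM scaling 14 were positive and 35 negative, with a median of -0.15. Without control mouse M6 the median was 0.06, against 0.04 over all genes, and 19 members had an unadjusted p under 0.05. Only 4 members did so without KO M12 or control M10. The share of all genes at that p is not given for these fits, so the counts cannot be set against it.

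Between the depots most members passed the threshold, and most of those were lower in gonadal than in inguinal fat. In KO mice 40 of 49 members passed an adjusted p of 0.05 with limma, 5 higher and 35 lower in gonadal fat, against 35.1% and 12.7% of 14593 genes. In control mice 32 passed, 5 higher and 27 lower, against 26.9% and 14.5% of 14505 genes. The median log2 fold change, gonadal over inguinal, was -0.93 in KO and -0.82 in control mice, against 0.27 and 0.18 over all genes, of which 69.2% and 63.2% were higher in gonadal fat. Leaving out control mouse M10 lowered the count in control mice to 12. The share of all genes called is not given for that fit, so the count cannot be set against it.

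The citrate cycle was lower in gonadal fat almost throughout. In KO mice 13 of its 14 genes passed, all lower, and in control mice all 14 did, with medians of -1.26 in KO and -1.25 in control mice. The succinyl-CoA ligase subunit Sucla2 (chr14:73525319-73596142) stood at 40.5, 47.7 and 46.5 FPKM in gonadal KO pads against 142, 167 and 142 FPKM in inguinal KO pads, and at 39.6, 34.2 and 33.8 FPKM in gonadal control pads against 95.5, 154 and 143 FPKM in inguinal control pads. Neither pair overlapped, and its log2 fold changes were -1.73 in KO (SE 0.10, limma adjusted p = 0.00029) and -1.83 in control mice (SE 0.19, limma adjusted p = 0.00132). Suclg1, the partner subunit, fell by 1.37 in KO mice (SE 0.08), Idh3b by 1.49 (SE 0.10) and Idh3g by 1.34 (SE 0.09), and Idh3a by 2.18 in control mice (SE 0.16, limma adjusted p = 0.000547).

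Pyruvate entry fell along with it, with 10 genes lower and 2 higher past the threshold in KO mice and 8 lower and 1 higher in control mice. Pdha1, the alpha subunit of the E1 enzyme and the target of the inhibitory kinases (chrX:160122209-160138413), stood at 53.0, 62.5 and 67.2 FPKM in gonadal KO pads against 304, 266 and 268 FPKM in inguinal KO pads. These ranges were far apart (log2 fold change -2.19, SE 0.11, limma adjusted p = 0.000221). In control mice Dlat fell by 1.88 (SE 0.19, limma adjusted p = 0.00119) and Pdp2, a phosphatase that reactivates the complex, by 1.30 (SE 0.14, limma adjusted p = 0.00153). The kinase Pdk3 did the opposite, with log2 fold changes of 1.49 in KO and 1.40 in control mice, and made up 20.7% ± 3.78 of the FPKM of Pdk1, Pdk2 and Pdk3 in gonadal KO against 3.41% ± 1.16 in inguinal KO fat, and 19.8% ± 4.86 in gonadal control against 5.63% ± 4.33 in inguinal control fat (SD, n = 3 each). The other phosphatase, Pdp1, was also higher in gonadal fat, at 4.95 against 3.21 FPKM in KO and 5.08 against 3.63 FPKM in control mice (means). The kinases Pdk1 and Pdk2 were lower there in both genotypes. Pdk4, a kinase outside the set and left out of the Pdk3 shares, was lower in gonadal fat too. It stood at 6.14 against 69.4 FPKM in KO and 9.56 against 77.1 FPKM in control mice (means), above Pdk2 in inguinal fat. With Pdk3 and Pdp1 the exceptions, neither the kinases nor the phosphatases moved as a class.

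**Figure D5:**
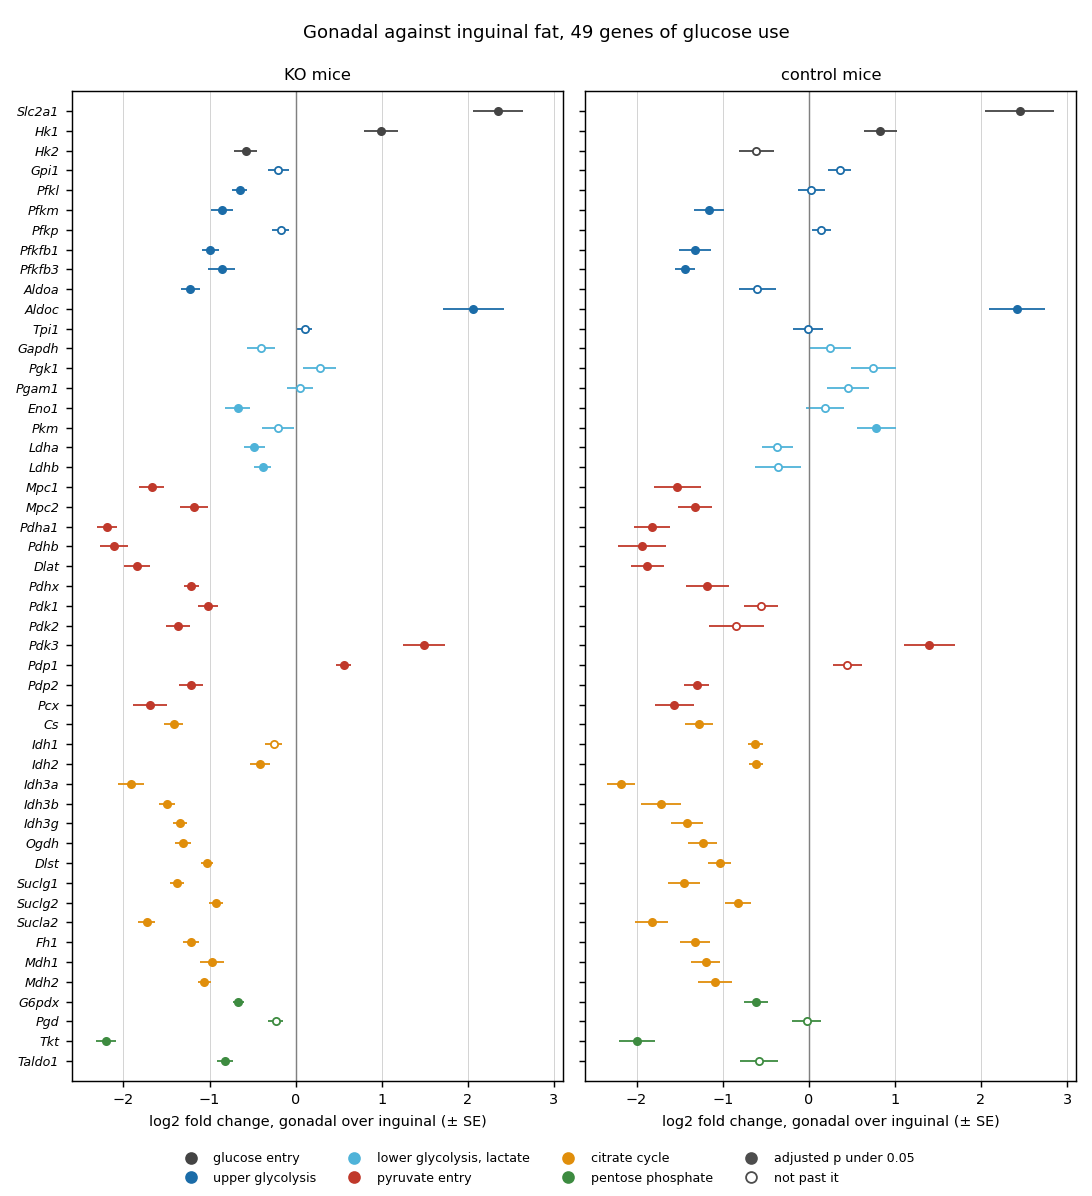
Log2 fold change of FPKM, gonadal over inguinal, with its standard error, for the 49 members in KO mice (left) and control mice (right), coloured by step. Filled circles passed an adjusted p of 0.05. Citrate cycle genes lie between -2.18 and -0.26, whereas Slc2a1, Hk1, Aldoc, Pgk1, Pgam1, Pdk3 and Pdp1 lie on the gonadal side in both genotypes.

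Tkt fell by 2.20 in KO mice (SE 0.12, limma adjusted p = 0.000235), the lowest value of the 49 members there, and its log2 fold change was -1.995 in control mice (SE 0.21, limma adjusted p = 0.00121). Its levels were 225, 269.6 and 286 FPKM in gonadal KO pads against 1188, 1186 and 1203 FPKM in inguinal KO pads, and 201, 185 and 165 FPKM in gonadal control pads against 555, 904 and 779 FPKM in inguinal control pads. Pfkfb3 fell by 1.44 in control mice (SE 0.12, limma adjusted p = 0.000676). In lower glycolysis 3 genes passed the threshold on the lower side in KO mice, Eno1, Ldha and Ldhb, and none in control mice. In control mice 1 gene of this step passed on the higher side. Its median was -0.38 in KO mice, with 5 of 7 genes lower in gonadal fat, and 0.25 in control mice, with 5 of 7 higher. The control value was near that of all genes, with a median of 0.18 and 63.2% higher. With TMM scaling the median of the step was -0.66 in KO mice and 0.07 in control mice. In that fit 5 of 7 genes were still higher in control mice, but none of them passed the threshold.

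Isoform shares at the entry to glycolysis did not overlap between the depots. Slc2a1, the widely expressed glucose transporter, stood at 45.8, 25.7 and 23.5 FPKM in gonadal KO pads against 5.75, 4.32 and 6.80 FPKM in inguinal KO pads, with log2 fold changes of 2.35 in KO and 2.45 in control mice (SE 0.29 and 0.40, limma adjusted p = 0.00165 and 0.00474). Set beside Slc2a4, the insulin-responsive transporter, it made up 43.7% ± 12.1 of their summed FPKM in gonadal KO against 4.04% ± 1.05 in inguinal KO fat, and 56.2% ± 17.4 in gonadal control against 5.78% ± 2.29 in inguinal control fat (SD, n = 3 each). Hk1, the constitutive hexokinase, made up 48.9% ± 2.66 of the FPKM of Hk1 and Hk2 in gonadal KO against 24.0% ± 4.75 in inguinal KO fat, and 57.3% ± 1.85 in gonadal control against 33.1% ± 10.3 in inguinal control fat. Those shares leave out Hk3, a hexokinase outside the set. Its means were 24.3 FPKM in gonadal KO against 0.99 FPKM in inguinal KO fat, and 22.6 against 2.65 FPKM in control mice. Aldoa gave over 99.4% of the aldolase FPKM and Ldha 85.8% to 92.9% of the lactate dehydrogenase FPKM in all 12 pads. Macrophage markers also differed between the depots, with sums of 1291 to 2112 FPKM in gonadal KO against 139.7 to 202 FPKM in inguinal KO pads, and 1903 to 2209.6 FPKM in gonadal control against 266 to 530.1 FPKM in inguinal control pads. Adipocyte markers ran the other way, as given above, as did brown fat markers, with 43.9 to 93.8 FPKM in gonadal KO against 1008 to 1369.7 FPKM in inguinal KO pads, and 19.7 to 36.1 FPKM in gonadal control against 308.5 to 1169 FPKM in inguinal control pads. The part of cell composition in the depot differences was not tested.

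Genes outside the set that feed from or return to these routes were counted as a list of 41. In gonadal fat 13 of the 37 tested had an unadjusted p under 0.05 and a higher level in KO, and 3 a lower one, against the 4.4% and 4.3% of all genes given above, and none passed the adjusted threshold. In inguinal fat 8 of 38 stood higher and 3 lower by the same measure, against 3.29% and 11.6% of all genes, and again none passed. The log2 fold changes of the 4 with the smallest p in gonadal fat were 1.06 for the dicarboxylate carrier Slc25a10 (SE 0.16), 1.32 for the glycerol phosphate dehydrogenase Gpd1 (SE 0.27), 1.39 for malic enzyme Me1 (SE 0.29) and 1.14 for the citrate carrier Slc25a1 (SE 0.26). In inguinal fat they were 1.53 for Acly, which cleaves exported citrate (SE 0.23), 1.49 for Me1 (SE 0.27), 0.83 for Slc25a10 (SE 0.17) and 1.5 for Slc25a1 (SE 0.33). Me1 stood at 72.4, 141 and 142 FPKM in gonadal KO pads against 51.1, 40.1 and 38.5 FPKM in gonadal control pads, and at 656, 579.5 and 653 FPKM in inguinal KO pads against 149, 306 and 245 FPKM in inguinal control pads. KO pads were above control pads in both depots.

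Of the transcriptional regulators of these routes, 2 of 9 tested had an unadjusted p under 0.05 in gonadal fat and 1 of 10 in inguinal fat, all higher in KO, against 4.4% and 3.29% of all genes, and none passed the adjusted threshold. Esrra, a nuclear receptor that drives mitochondrial genes, stood at 34.9, 39.3 and 38.5 FPKM in gonadal KO pads against 28.7, 30.5 and 27.7 FPKM in gonadal control pads, and at 59.1, 59.1 and 56.4 FPKM in inguinal KO pads against 38.5, 51.1 and 49.99 FPKM in inguinal control pads. It was higher in all KO pads of both depots (0.37, SE 0.08, and 0.33, SE 0.12, with limma adjusted p values of 0.421 and 0.291). Srebf1, a regulator of lipogenic genes, stood at 0.56 (SE 0.19) in gonadal fat. The others named by smallest p were Txnip at -0.58 (SE 0.26) and Hif1a at -0.36 (SE 0.17) in gonadal fat, and Txnip at -0.42 (SE 0.29), Ppargc1a at 0.23 (SE 0.16) and Mlxipl, the carbohydrate response factor, at 0.12 (SE 0.10) in inguinal fat.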

How the data were processed

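Per the labels' protocols, total RNA came from Qiagen RNeasy columns and went into NEBNext Ultra libraries. CASAVA, STAR and mm10 are named in the submitters' processing notes. The counter, and whether it used strand, is not stated there, so overlapping genes may share reads. The authors deposited FPKM, scaled by gene length and by reads assigned to genes, for 35275 genes in 24 libraries. The authors' tables of changed genes hold read counts, group means as a scaled signal, a log2 fold change and a p-value with its adjusted form, per the file headers; 24 further FPKM columns in them were not used.

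Libraries were mapped to groups by name: z was read as KO, because the authors' KO mean follows the z columns, e as epididymal (gonadal) and s as subcutaneous (inguinal). The names give 6 mice, KO M5, M9 and M12 and control M6, M7 and M10. Over genes, the 2 libraries of a pad correlated at r = 0.995 to 0.997 (12 pairs) and libraries of different mice of a group at 0.958 to 0.992 (48 pairs). They were averaged, so p-values measure the spread between these mice. The depots are paired by animal; deviations of 1 mouse's pads correlated at -0.10 to 0.14, and those of different mice at -0.18 to 0.14.

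The limma fits (limma 3.58.1, R 4.3.3; two-sided, with trend, Benjamini-Hochberg adjusted p under 0.05) were made on log2(FPKM + 0.5), a scale that understates the change of low genes, for genes averaging at least 0.5 FPKM over a fit's pads. Each KO comparison used the 6 pads of its depot, each depot comparison the 6 pads of its genotype and the interaction all 12. FPKM times gene length and the library's total came out whole for 100% of values (tolerance 0.001), and these rebuilt counts were added up within a pad for edgeR 4.0.16 (quasi-likelihood) and DESeq2 1.42.0. The limma fit was tested on simulated data. Promoters came from RefSeq GRCm38.p6.

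The members and lists were chosen with earlier results of these data known. Values are given for the 8 members of smallest p in each KO comparison, 3 in the interaction and 6 in each depot comparison, the most abundant member of each step, and up to 4 genes of each further list. G6pdx, Tkt, Cs, Mpc1-ps, Eno1b, Slc2a4, Pdk4, Hk3 and the gonadal Pkm values were chosen after their values were seen, as were the macrophage, adipocyte and brown fat covariates.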

Additional observations from a re-analysis of the deposited data

How the results depend on the processing

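Over all alternatives no member named by smallest p changed sign in the comparison it was named for. Of their values 457 kept their direction and their side of the threshold, and 36 passed it where the limma fit described above did not. Other members did change sign. With the macrophage covariate all 14 inguinal citrate cycle genes, Cs among them, stood lower in KO. Without control M7 7 of 7 gonadal lower glycolysis genes, Pkm among them, stood higher. In gonadal fat the members called were 21 with 6 libraries per group and 12 with DESeq2, in place of 0; pseudocounts of 0.1 and 1, no filter, a mean of at least 2 FPKM, TMM scaling, edgeR and the 4-group fit left 0. In inguinal fat they were 26, 11 and, in the 4-group fit, 1, and 0 to 1 on leaving out each mouse; the inguinal median was -0.039 with the macrophage covariate, and the gonadal median 0.089 with the brown fat covariate. For the interaction 6 libraries per group called 7, and leaving out each mouse gave medians of -0.12 to 0.058. The depot median in KO mice was -1.20 with TMM, -1.18 with edgeR, -1.22 with DESeq2 and -1.03 to -0.82 on leaving out each mouse, and in control mice -0.997 with TMM, -1.04 with edgeR, -1.07 with DESeq2 and -1.02 to -0.61, with 12 to 36 members called. The share of all genes called is not given for these depot fits or for those with the animal as a block. Foxo1 passed the threshold in gonadal fat at -1.18 with 6 libraries and -1.28 with DESeq2, and in inguinal fat at -1.86 with 6 libraries, -1.83 with DESeq2 and -1.86 in the 4-group fit. With the animal as a replicate block, the depot comparison called 38 members in KO mice and 34 in control mice and the interaction 0, so the block changed no count of calls by over 1.5 times. For the KO comparisons no paired analysis was possible because KO and control pads came from different mice. The number of mice, 3 per group, limits the precision, and the cause of the gap between tools was not tested.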
